A study of Mus musculus with 13 samples.

Results

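Open chromatin was examined at the genes of 10 growth factor receptors, all receptor tyrosine kinases other than Pdgfra, in cultured mouse oligodendrocyte precursor cells (OPCs), the dividing cells that give rise to myelinating oligodendrocytes. The receptors were Egfr, Erbb3, Fgfr1, Fgfr2, Fgfr3, Ntrk2, Ntrk3, Met, Igf1r and Pdgfrb, out of 21951 protein-coding genes in the GENCODE M21 annotation. They were listed by name and not by a rule on their measured values, but earlier results of these data were known. The data were ATAC-seq, in which the transposase Tn5 cuts accessible DNA, from 13 libraries, each given as 1 list of called peaks. For each receptor, peaks were collected from 50 kb before to 50 kb after the gene. A start window took in the 2 kb before and the 1 kb after an annotated transcription start, and the main start was that of the longest transcript among those that the annotation ranks as principal.

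The cells came from pups of postnatal day 5 to 7 on the FVB background, and tissue was pooled by region and genotype before culture. The K27M pups carried the lysine-to-methionine mutation of histone H3.3 at its own locus, switched on by a Cre recombinase under a GFAP promoter (AMGFAP-Cre in the labels, hGFAP-Cre in the methods of the study), which acts in neural stem and progenitor cells and not in OPCs alone. Controls were pups labelled as control, which the study describes as littermates of the K27M pups. The alleles they carried are not given in the labels. For its single-cell samples the study describes littermate controls as lacking Cre. There were 3 control brainstem libraries (cultures 51, 59 and 61), 3 K27M brainstem libraries (41, 59 and 61), 3 control telencephalon libraries (51, 59 and 61) and 4 K27M telencephalon libraries (41, 51, 59 and 61). Telencephalon stands for pooled cortex, corpus callosum and hippocampus. All cultures had been depleted of cells that bind the lectin BSL1, selected on an antibody to PDGFRα and kept, undifferentiated, in medium with 20 ng/ml PDGF, 1 ng/ml neurotrophin-3, 10 ng/ml CNTF and forskolin. The comparisons asked whether region of origin or K27M alters accessibility at these receptor genes. All groups were exposed to the ligands of PDGFRα and TrkC throughout, and none was grown without them.

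Receptor tyrosine kinases span the cell membrane, bind a protein ligand outside the cell and, once paired, phosphorylate each other and recruit adaptors that switch on the RAS-MAPK and PI3K pathways. PDGF through PDGFRα is the principal mitogen of OPCs, FGF receptors cooperate with it in keeping OPCs dividing, and IGF1R and the ERBB receptors act in survival and myelination. TrkC, the product of Ntrk3, is the receptor for neurotrophin-3. An open start does not by itself show that a gene is transcribed, and no RNA was measured in these files. In bulk cultures, fewer cells with an open site and a less open site in every cell cannot be told apart.

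The lists held 16879 to 52466 peaks, and both the shortest list (control telencephalon 59) and the longest (control brainstem 61) belonged to control cultures. The lists hold no read counts, so the depth is unknown and an uncalled start means only that no peak was called in that library. Fold is the deposited enrichment of a peak over its surroundings in the same library, averaged over the peak, and its percentile gives the rank of a peak within its own list. Start windows of 4 of the 5 OPC markers (Pdgfra, Olig1, Olig2 and Sox10) held a peak in all 13 libraries, and that of Cspg4 in 3. Of the markers of other cells, 2 of 4 for astrocytes and 3 of 4 for neurons were called in all 13, and none of 5 for microglia, 4 for endothelium, 5 for pericytes and mural cells, or 4 for fibroblasts. Per library, 0 to 3 microglial, 0 to 2 endothelial, 1 to 4 mural and 0 to 2 fibroblast start windows held a peak, with Csf1r, Cx3cr1, Cdh5, Des, Dcn and Lum in no library. Others of these markers were called widely, namely P2ry12 (microglia), Kcnj8 (mural) and Col1a1 (fibroblasts) in 12 libraries each, Flt1 (endothelium) in 11 and Abcc9 (mural) in 9. The part of other cells in the results was not tested.

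The start windows of 6 receptors (Egfr, Fgfr1, Fgfr2, Ntrk2, Ntrk3 and Igf1r) held a peak in all 13 libraries, those of Fgfr3 and Met in 12, that of Erbb3 in 4 and those of Pdgfrb in none. In comparison, 9211 of the 21951 protein-coding genes (42%) had a start peak in all 13 libraries and 6724 (30.6%) in none. In total 185 merged peaks lay in the 10 loci, where a merged peak joins the overlapping peaks of different libraries. Of these, 28 (15.1%) were called in all 13 libraries and 75 (40.5%) in 1 library, against 13.1% and 43.1% of all 99746 merged peaks. The 28 comprised 7 peaks in start windows, 9 elsewhere in gene bodies and 12 in the flanks, and 9 of the 12 flanking ones overlapped a start window of another gene.

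**Figure D1:**
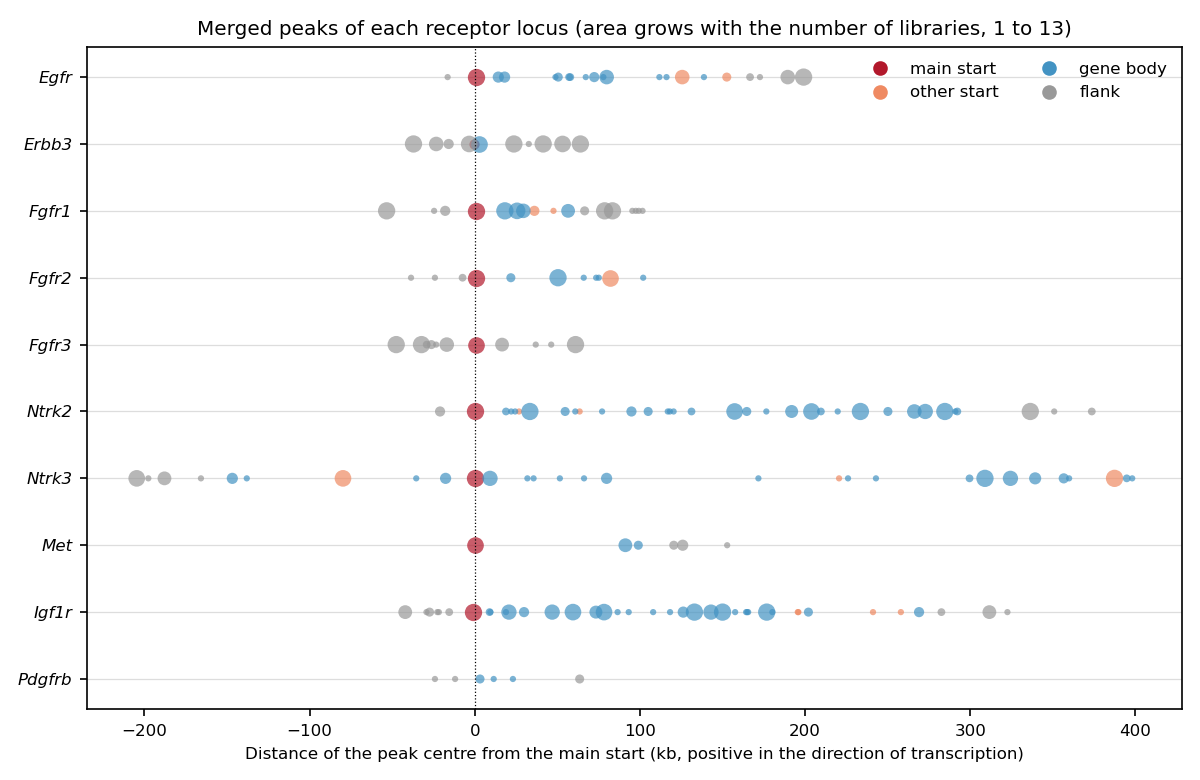
Each point is a merged peak of a receptor locus, placed by the distance of its centre from the main start of the gene in kb, with the area growing with the number of libraries that called it and the colour giving its class. Erbb3 and Fgfr3 are short genes with most of their widely shared peaks outside the gene, Ntrk2, Ntrk3 and Igf1r spread shared peaks over long introns, and Pdgfrb has only peaks of few libraries.

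Sequences of 2 kinds are given, since the main starts and the intronic peaks differed in base composition. RefSeq promoters on GRCm38.p6 (the assembly of mm10) were found for 6 of the 10 receptors. Entries for Erbb3, Fgfr1, Ntrk3 and Pdgfrb were missing. The 250 bases upstream of the RefSeq start are shown for 5 receptors whose start peak covered that stretch wholly or, for Egfr, in most of its bases. The RefSeq starts of Ntrk2 and Igf1r lie before the main starts used here (chr13:58807697 and chr7:67952827). That of Met lies after its main start (chr6:17463800), so its window reaches into the gene. For Fgfr3 the first of its 2 RefSeq starts is shown. The promoter given for Fgfr2 lay outside its start peak and is not shown. Capitals mark matches, as written or as reverse complement, to the GC box GGGCGG, the CCAAT box, the TATA box TATAAA, the E-box CAGCTG, which reads alike on both strands, and the SOX-type motif ACAAAG.
Egfr promoter (chr11:16751953-16752202, + strand): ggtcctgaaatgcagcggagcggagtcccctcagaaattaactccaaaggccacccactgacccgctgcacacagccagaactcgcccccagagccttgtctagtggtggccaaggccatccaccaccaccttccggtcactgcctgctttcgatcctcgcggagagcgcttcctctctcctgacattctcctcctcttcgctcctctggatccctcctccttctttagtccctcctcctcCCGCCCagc
Fgfr3 promoter 1 (chr5:33721474-33721723, + strand): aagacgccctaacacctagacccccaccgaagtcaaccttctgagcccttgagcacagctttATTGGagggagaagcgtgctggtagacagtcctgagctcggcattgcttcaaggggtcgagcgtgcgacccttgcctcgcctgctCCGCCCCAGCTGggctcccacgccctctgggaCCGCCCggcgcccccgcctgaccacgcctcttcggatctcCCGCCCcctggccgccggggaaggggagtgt
Ntrk2 promoter (chr13:58806319-58806568, + strand): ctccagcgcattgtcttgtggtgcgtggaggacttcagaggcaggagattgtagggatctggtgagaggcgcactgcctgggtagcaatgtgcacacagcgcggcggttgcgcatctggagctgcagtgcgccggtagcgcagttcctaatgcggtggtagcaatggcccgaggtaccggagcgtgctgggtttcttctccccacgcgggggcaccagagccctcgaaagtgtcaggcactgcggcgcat
Met promoter (chr6:17463707-17463956, + strand): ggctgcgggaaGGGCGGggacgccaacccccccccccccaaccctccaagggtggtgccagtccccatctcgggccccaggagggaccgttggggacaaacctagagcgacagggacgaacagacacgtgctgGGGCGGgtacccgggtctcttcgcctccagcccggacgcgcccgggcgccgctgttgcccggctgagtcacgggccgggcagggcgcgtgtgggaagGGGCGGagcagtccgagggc
Igf1r promoter (chr7:67952007-67952256, + strand): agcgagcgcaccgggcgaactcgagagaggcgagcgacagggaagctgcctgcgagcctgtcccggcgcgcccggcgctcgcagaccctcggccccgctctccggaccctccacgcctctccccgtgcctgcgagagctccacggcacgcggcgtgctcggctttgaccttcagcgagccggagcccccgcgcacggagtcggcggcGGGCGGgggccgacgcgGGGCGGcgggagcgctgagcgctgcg

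The Met promoter held 3 GC boxes and the Fgfr3 promoter 3 GC boxes, 1 CCAAT match and 1 E-box, which lay directly after a GC box. The Ntrk2 promoter held none of the motifs. The 7 RefSeq promoters of the 6 receptors had 44% to 77.6% G+C, with a median of 66.8%, against a median of 52.4% over 32841 RefSeq promoters of the same length. A GC box was present in 5 of the 7 and in 32.7% of all promoters. The CCAAT box, TATA box, E-box and SOX-type motif were present in 33.9%, 12.4%, 13% and 16.5% of all promoters, and in 1, 0, 1 and 0 of the 7.

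The second set gives, for each of 6 receptors, the central 200 bases of its strongest intronic peak called in at least 12 libraries, on the strand of the gene and with the same capitals. Among such peaks the choice was by mean fold percentile and not by the number of libraries.
Erbb3 intron 1 peak (chr10:128587307-128587506, - strand): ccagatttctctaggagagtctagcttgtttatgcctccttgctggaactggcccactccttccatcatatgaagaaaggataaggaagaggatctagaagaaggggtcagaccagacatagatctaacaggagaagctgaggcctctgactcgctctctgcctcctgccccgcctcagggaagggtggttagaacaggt
Fgfr1 intron 2 peak (chr8:25536852-25537051, + strand): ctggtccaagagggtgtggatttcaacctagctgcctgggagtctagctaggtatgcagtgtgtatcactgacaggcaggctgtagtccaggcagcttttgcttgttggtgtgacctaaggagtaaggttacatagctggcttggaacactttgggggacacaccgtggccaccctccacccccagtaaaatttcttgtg
Fgfr2 intron 10 peak (chr7:130184034-130184233, - strand): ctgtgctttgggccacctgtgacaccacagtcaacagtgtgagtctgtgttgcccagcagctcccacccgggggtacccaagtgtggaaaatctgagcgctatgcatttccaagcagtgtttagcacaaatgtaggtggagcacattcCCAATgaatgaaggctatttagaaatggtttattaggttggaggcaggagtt
Ntrk2 intron 4 peak (chr13:58840936-58841135, + strand): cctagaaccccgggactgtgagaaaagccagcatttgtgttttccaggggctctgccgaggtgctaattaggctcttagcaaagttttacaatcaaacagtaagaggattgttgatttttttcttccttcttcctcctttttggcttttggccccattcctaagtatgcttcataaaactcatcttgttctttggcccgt
Ntrk3 intron 12 peak (chr7:78269448-78269647, - strand): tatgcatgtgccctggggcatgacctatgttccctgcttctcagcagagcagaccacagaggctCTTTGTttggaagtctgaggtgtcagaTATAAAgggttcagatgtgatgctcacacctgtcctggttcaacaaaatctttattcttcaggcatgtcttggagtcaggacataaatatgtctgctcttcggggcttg
Igf1r intron 2 peak (chr7:68102708-68102907, + strand): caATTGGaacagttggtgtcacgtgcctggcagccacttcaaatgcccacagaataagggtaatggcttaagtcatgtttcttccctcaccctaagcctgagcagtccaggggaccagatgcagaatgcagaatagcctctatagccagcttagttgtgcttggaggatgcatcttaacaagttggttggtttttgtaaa

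The centres of the 18 peaks in gene bodies or at other starts that were called in 12 or 13 libraries had 38.5% to 58.5% G+C (median 49.2%). The centres of the 8 main start peaks called as widely had 60% to 78% (median 68.5%), without overlap between the classes. The ratio of observed to expected CpG ran from 0 to 0.603 in the former and from 0.446 to 1.15 in the latter. Over the centres of 13055 peaks called in all libraries the median G+C was 60.5%, GC boxes were present in 36.2%, the CCAAT box in 21.7%, the TATA box in 4.44%, the E-box in 15.5% and the SOX-type motif in 14.4%. Of the 18 centres in gene bodies or at other starts, 3 held a GC box, 6 a CCAAT box, 2 a TATA box, 2 an E-box and 3 the SOX-type motif. A match describes the letters and not a bound factor.

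Ordered by mean fold percentile of the main start peak over the libraries that called it, Fgfr1 was first (71.1 ± 18.4, SD, n = 13), followed by Egfr (68.5 ± 23.5, n = 13), Met (60.6 ± 21.9, n = 12), Fgfr2 (43.4 ± 23.3, n = 13), Igf1r (34.7 ± 17.6, n = 13), Ntrk2 (32.2 ± 15.1, n = 13), Fgfr3 (15.4 ± 16.8, n = 12), Ntrk3 (7.14 ± 9, n = 13) and Erbb3 (1.75 ± 2.84, n = 4). No neighbours in this order were further apart than the larger of their SDs. These SDs take no account of ranks within the same library, where for example Fgfr1 stood above Fgfr2 in all 13. Wide peaks average their fold over more bases. The start peaks of Fgfr1, Egfr and Met were 1416, 1321 and 814 bp wide on average, and those of Igf1r, Ntrk2 and Ntrk3 were 2551, 2737 and 2828 bp. Over all peaks called in the 13 libraries, the median percentile was 78.5 for the 5873 peaks of 1 to 1.5 kb. It was 75 for the 4942 peaks under 1 kb and 64.5 for the 1574 peaks of 1.5 to 2 kb. For the 686 peaks of 2 kb or more it was 42.2. Ntrk3, Fgfr2 (1302 bp) and Fgfr3 (1873 bp) stood well below the median of their own width class. Fgfr1, Egfr, Igf1r and Ntrk2 stood nearer to theirs. Met, at 60.6, also stood below the median of its class, that of peaks under 1 kb. The rank correlation (Spearman) of width and percentile over these shared peaks was -0.158, and the part of width in the order was not tested. The OPC markers Sox10 (5.71), Pdgfra (18.4), Olig1 (40.3) and Olig2 (41.3) had percentiles below the median of 75.7 over protein-coding start windows called in all 13 libraries.

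**Figure D2:**
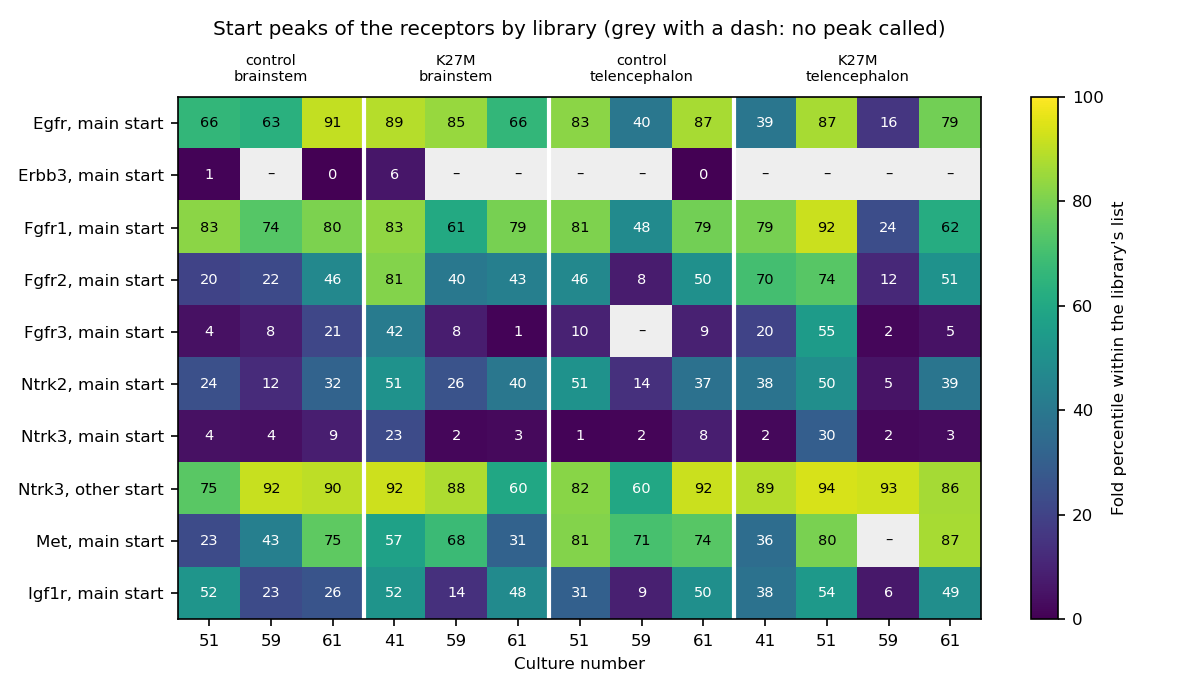
Cells give the fold percentile, from 0 to 100, of each named start peak of the receptors within the list of each library, with columns grouped by genotype and region and numbered by culture. Egfr and Fgfr1 are high in most libraries, Ntrk3 is low at its main start and high at its other start, and the Erbb3 start is called in 4 libraries only.

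The ERBB receptors differed in how they were called open. Egfr (chr11:16752203-16918158, + strand), the receptor of EGF and TGFα, had a main start peak (chr11:16751986-16753550) over exon 1 and the beginning of intron 1 in every library. Its fold was 3.26, 3.2 and 4.49 in control brainstem, 4.24, 3.82 and 3.11 in K27M brainstem, 3.34, 2.76 and 4.15 in control telencephalon and 2.69, 4.17, 2.62 and 3.4 in K27M telencephalon (cultures in the order given above, here and below). The 4 groups overlapped, and K27M telencephalon 41 and 59 were the lowest of all libraries. Of the other shared peaks of the locus, the strongest lay 199053 bp from the start, at the starts of Eldr and Fbxo48, with a fold of 4.19 ± 0.609 (n = 13).

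Erbb3 (chr10:128567523-128589652, − strand), which binds neuregulins, has an impaired kinase and signals through partners such as ERBB2, was the only receptor with a start called in some libraries and not in most. A weak peak just upstream of its start (chr10:128589728-128590448) had a fold of 2.17 in control brainstem 51, 1.75 in control brainstem 61, 2.22 in K27M brainstem 41 and 1.86 in control telencephalon 61, and it was not called in the other 9 libraries. Those 4 included the longest list, and none of them was a K27M telencephalon library. Too few libraries called it for a test of detection. Only 4 of the 269 other protein-coding genes with a start called in 4 libraries had it in the same 4, and the 3 of these with the highest mean percentile were Ildr2 (27.1), Hsd17b14 (17.7) and Ly6g6e (14.1).

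A wider peak in intron 1 of Erbb3, centred 2245 bp inside the gene (chr10:128586540-128588534), was called in 12 of 13 libraries with a fold of 2.24 ± 0.172 and a percentile of 5.03 ± 9.55. Another, upstream and centred at -3405 bp from the start (chr10:128592435-128593498), was also called in 12, with a fold of 3.07 ± 0.36. Open chromatin was thus called on both sides of the start window more often than in it. The strongest peak of the locus was the start of the neighbouring Pa2g4, which encodes an ERBB3-binding protein, with a fold of 4.34 ± 0.562 (n = 13).

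The 3 FGF receptors bind fibroblast growth factors together with heparan sulfate. Fgfr1 (chr8:25513654-25575718, + strand) had a main start peak (chr8:25518264-25520459) over exon 1 with a fold of 3.68, 3.41 and 3.95 in control brainstem, 3.94, 3.22 and 3.41 in K27M brainstem, 3.28, 2.83 and 3.79 in control telencephalon and 3.4, 4.49, 2.71 and 3 in K27M telencephalon. The groups overlapped, and the lowest libraries were both telencephalon libraries of culture 59. Within intron 2, peaks centred 18193 bp and 25586 bp from the start were called in 13 and 12 libraries, with folds of 3.26 ± 0.498 and 2.42 ± 0.188.

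Fgfr2 (chr7:130162451-130266263, − strand) had a main start peak (chr7:130264734-130266719) with a fold of 2.65, 2.72 and 3.01 in control brainstem, 3.84, 2.91 and 2.77 in K27M brainstem, 2.66, 2.39 and 3.02 in control telencephalon and 3.17, 3.56, 2.56 and 2.81 in K27M telencephalon. All groups overlapped, and the highest value was in K27M brainstem 41. A narrower peak inside the gene, in intron 10 and in the start window of a shorter transcript (chr7:130183670-130184852), was called in 12 libraries and ranked higher, with a percentile of 77.7 ± 8.67 against 43.4 ± 23.3 at the main start. A peak in intron 6 (chr7:130215094-130216728) was called in all 13 with a percentile of 70.7 ± 14.1.

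Fgfr3 (chr5:33721674-33737068, + strand) is the shortest of the 10 genes. Its start peak (chr5:33721341-33723917) reached over exons 1 and 2 with a fold of 2.39, 2.52 and 2.63 in control brainstem, 2.67, 2.52 and 2.08 in K27M brainstem, 2.29 and 2.42 in control telencephalon 51 and 61, and 2.51, 3, 2.26 and 2.23 in K27M telencephalon. No peak was called in control telencephalon 59, the shortest list, and the other libraries overlapped between groups. Its other widely called peaks lay outside the gene, centred at -47596 bp and -32284 bp from the start and, at the start of Letm1, at 60969 bp. The start peak also lay in a start window of G630022F23Rik.

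Among the neurotrophin receptors, Ntrk2 (chr13:58806569-59133970, + strand), which encodes the BDNF receptor TrkB, had a wide main start peak (chr13:58806306-58810268). Its fold was 2.7, 2.6 and 2.77 in control brainstem, 2.87, 2.76 and 2.74 in K27M brainstem, 2.71, 2.5 and 2.81 in control telencephalon and 2.68, 2.88, 2.43 and 2.65 in K27M telencephalon. This was the narrowest relative spread of the shared starts (2.7 ± 0.131, n = 13), with the groups overlapping. Its intron 4 held the strongest of its intronic peaks called in 12 or 13 libraries (chr13:58840324-58841684), with a fold of 3.89 ± 0.537 (n = 13), and peaks in introns 12, 13, 14 and 16 were called in 12 or 13 libraries.

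Ntrk3 (chr7:78175959-78738012, − strand), the longest gene of the 10, had the weakest main start among those called in every library (chr7:78575727-78580084), in a very wide peak. The fold was 2.39, 2.42 and 2.45 in control brainstem, 2.4, 2.29 and 2.2 in K27M brainstem, 2.04, 2.18 and 2.4 in control telencephalon and 2.22, 2.53, 2.3 and 2.17 in K27M telencephalon. By contrast, a peak over exon 17 of the same transcript and in the start window of a shorter one (chr7:78190487-78191897), 387307 bp further on, had a fold of 3.45, 3.98 and 4.43, 4.49, 3.94 and 3, 3.32, 2.94 and 4.46, and 3.74, 4.69, 4.07 and 3.67 in the same order of groups. In all 13 libraries the fold at the later start was above that at the main start, and at both the groups overlapped. The strongest of its intronic peaks called in all libraries lay in intron 12 (chr7:78268820-78270249), with a fold of 3.98 ± 0.444 (n = 13).

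Met (chr6:17463800-17573980, + strand), the receptor of hepatocyte growth factor, had a narrow start peak (chr6:17463352-17464518) with a fold of 2.68, 2.92 and 3.75 in control brainstem, 3.02, 3.38 and 2.66 in K27M brainstem, 3.3, 3.08 and 3.62 in control telencephalon and 2.65, 3.8 and 3.7 in K27M telencephalon 41, 51 and 61. It was not called in K27M telencephalon 59, and the called values overlapped between groups. Met had 6 merged peaks in all. None was called in all libraries, and a peak in intron 16 was called in 8.

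Igf1r (chr7:67952827-68233668, + strand), the receptor of IGF1 and IGF2, had a wide start peak (chr7:67950370-67953644) with a fold of 3.02, 2.73 and 2.69 in control brainstem, 2.88, 2.62 and 2.83 in K27M brainstem, 2.5, 2.42 and 3.02 in control telencephalon and 2.67, 2.97, 2.46 and 2.78 in K27M telencephalon. The groups overlapped. Its long intron 2 held 5 peaks called in 12 or 13 libraries, the strongest of which (chr7:68101913-68103769) had a fold of 3.53 ± 0.435 and a percentile of 75.4 ± 12.9 (n = 13), above the 34.7 ± 17.6 of the start.

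Pdgfrb, on chromosome 18, encodes the receptor of PDGF-BB on pericytes and other mural cells. No library had a peak in its start windows, and its 6 merged peaks were each called in 3 libraries at most, 4 of them in 1. In the same libraries 1 to 4 of the 5 mural markers (Rgs5, Kcnj8, Abcc9, Des and Acta2) had a start peak, with Kcnj8 in 12 libraries, Abcc9 in 9, Acta2 in 7, Rgs5 in 1 and Des in none.

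No receptor peak that could be fitted passed adjustment for a difference between regions or genotypes. Of the 185 receptor peaks, the 28 called in all libraries were part of a limma fit of log2 fold, centred on the library median, over all 13075 such peaks, with the 4 groups and the culture number as terms and Benjamini-Hochberg adjustment. For brainstem against telencephalon, limma called 3 of the 13075 peaks at an adjusted p under 0.05 (0.0229%), none of them a receptor peak, and 832 (6.36%) had an unadjusted p under 0.05, against 0 of the 28. For K27M against control, limma called 0 (0%), with 586 (4.48%) under 0.05 unadjusted and 1 of the 28. The region difference of the 28 ran from -0.13 to 0.14 on the log2 scale (18 lower and 10 higher in brainstem, median -0.02, against 0.00 over all peaks), and the genotype difference from -0.13 to 0.17 (17 lower and 11 higher in K27M, median -0.01, against 0.00).

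Within single levels, limma again called 0 peaks (0%) for the region difference in control or in K27M cultures, for the genotype difference in brainstem or in telencephalon cultures, and for the interaction, that is the region difference in K27M minus that in control. At an unadjusted p under 0.05 these contrasts held 4.91%, 5.12%, 4.5%, 4.06% and 3.97% of all peaks and 0, 2, 3, 0 and 1 of the 28 receptor peaks. These counts are near the background.

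At the main starts the intervals give the differences compatible with the data at each single peak, without adjustment for the number of peaks. The 95% intervals of the log2 difference between brainstem and telencephalon were -0.05 to 0.26 for Egfr (estimate 0.11), -0.08 to 0.22 for Fgfr1 (0.07), -0.14 to 0.13 for Fgfr2 (-0.01), -0.17 to 0.13 for Ntrk2 (-0.02), -0.15 to 0.14 for Ntrk3 (0.00) and -0.16 to 0.16 for Igf1r (0.00). Those for K27M against control were -0.20 to 0.14 for Egfr (-0.03), -0.21 to 0.11 for Fgfr1 (-0.05), -0.07 to 0.24 for Fgfr2 (0.08), -0.17 to 0.16 for Ntrk2 (0.00), -0.19 to 0.12 for Ntrk3 (-0.03) and -0.18 to 0.17 for Igf1r (-0.01). Each of the 12 intervals held 0. The starts of Fgfr3, Met and Erbb3 were not called in every library and were not part of the fit.

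**Figure D3:**
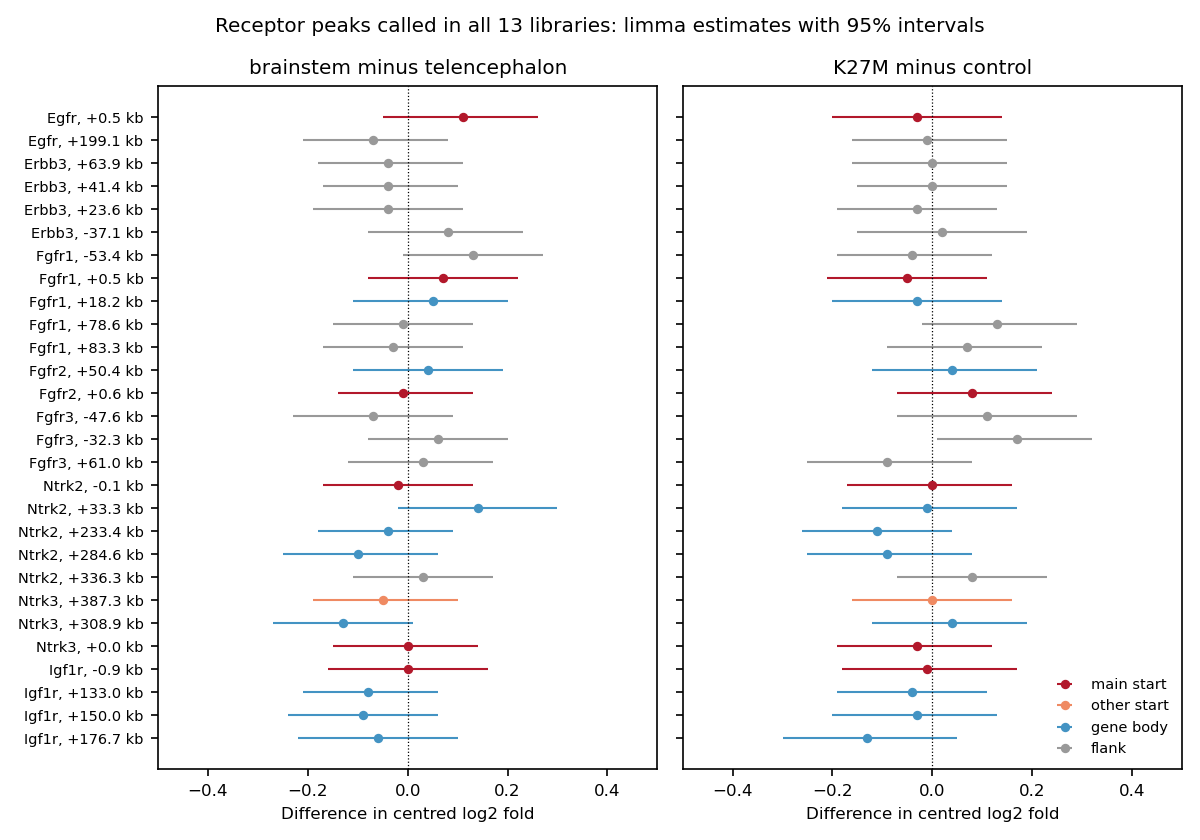
Points are limma estimates of the difference in centred log2 fold with 95% intervals for the 28 receptor peaks called in all 13 libraries, by region at the left and by genotype at the right, labelled by gene and distance from the main start. The estimates lie between -0.13 and 0.17, and 1 interval, that of the Fgfr3 peak at -32284 bp by genotype, leaves out 0.

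The peaks with an unadjusted p under 0.05 lay mostly in the flanks of Fgfr1 and Fgfr3. At the peak centred at -32284 bp from the Fgfr3 start (chr5:33688749-33689951) the fold was 3.07, 2.79 and 2.8 in control brainstem, 3.15, 3.52 and 2.74 in K27M brainstem, 2.79, 2.53 and 2.62 in control telencephalon and 2.56, 3.39, 2.98 and 2.86 in K27M telencephalon. Control and K27M libraries overlapped in both regions, and the estimate for K27M against control was 0.17 (interval 0.01 to 0.32, limma adjusted p = 0.999). The peak at -47596 bp had a fold of 2.88, 2.69 and 2.75 in control brainstem and 3, 2.92 and 3.48 in K27M brainstem, without overlap, but its genotype difference in brainstem did not pass adjustment either (0.26, limma adjusted p = 1). That difference was 0.06 without K27M brainstem 61, 0.12 without control brainstem 61 and 0.41 without K27M brainstem 59. As percentiles within the lists these groups did overlap, with 41.9, 19.3 and 30.7 in control brainstem and 56.8, 41.1 and 82.2 in K27M brainstem.

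The peak centred at -53395 bp from the Fgfr1 start (chr8:25463749-25466351) had a fold of 3.69, 3.59 and 3.37 in K27M brainstem and 2.65, 3.28, 3.14 and 2.69 in K27M telencephalon. These 2 groups did not overlap, and the region difference within K27M was 0.27 (limma adjusted p = 0.813), a contrast in which 5.12% of all peaks had a p under 0.05. In control cultures the fold was 3.17, 3.38 and 3.76 in brainstem and 3.16, 2.61 and 3.84 in telencephalon, and the interaction was 0.29 (limma adjusted p = 0.999). The remaining ones were the Letm2 start downstream of Fgfr1 (0.24 by genotype in brainstem, limma adjusted p = 1) and the Egfr main start (0.24 by region in K27M, limma adjusted p = 0.964, and 0.39 without K27M brainstem 61).

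Whether a peak was called at all was compared for peaks found in some libraries. Of the 11706 merged peaks found in 5 to 8 libraries, Fisher's exact test called 0 by region and 0 by genotype after adjustment (0% each), with 276 (2.36%) and 147 (1.26%) at an unadjusted p under 0.05. Of the 16 such peaks in the receptor loci, 0 reached that level in either comparison, and the lowest exact p was 0.103 in both. That p belonged by region to a peak in the Ntrk3 gene body 339251 bp from the start, called in 1 of 6 brainstem and 5 of 7 telencephalon libraries. By genotype it belonged to a peak at -42134 bp from the Igf1r start, called in 6 of 7 K27M and 2 of 6 control libraries. With 6 against 7 libraries the smallest p that Fisher's test can give is 0.000583, so over 11706 peaks hardly any pattern could pass the adjustment, and the absence of calls does not show that detection was alike.

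The number of peaks in a locus was compared in lists cut to the 16879 most significant peaks of each library. Erbb3 had 4.28 peaks per 100 kb on average, Fgfr1 3.13, Fgfr3 2.67, Igf1r 1.6, Ntrk2 1.4 and Fgfr2 1.21, all above the median of 1.12 over protein-coding loci, and Egfr (0.723), Ntrk3 (0.488), Met (0.403) and Pdgfrb (0) lay below it. In the small Erbb3 locus the starts of Esyt1, Zc3h10, Pa2g4 and Rps26 were among the peaks called in all libraries. By library, Fgfr2 had 2, 2 and 2 peaks in control brainstem, 3, 2 and 3 in K27M brainstem, 2, 2 and 3 in control telencephalon and 3, 3, 2 and 3 in K27M telencephalon, and Fgfr3 had 3, 3 and 2, 4, 3 and 3, 3, 3 and 2, and 4, 4, 3 and 3. Both were slightly higher in K27M cultures, by 0.54 peaks for Fgfr2 (exact permutation p = 0.0971) and 0.75 for Fgfr3 (p = 0.0857), but with all deposited peaks the difference was 0.12 for Fgfr2 and -0.25 for Fgfr3. Over the 16006 loci whose number varied, the exact permutation test called 0 by region and 0 by genotype after adjustment (0% each), and 490 (3.06%) and 387 (2.42%) had an unadjusted p under 0.05, none of them a receptor. The 700 arrangements of the labels cannot give a p below 0.00143, so few loci could pass the adjustment.

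**Figure D4:**
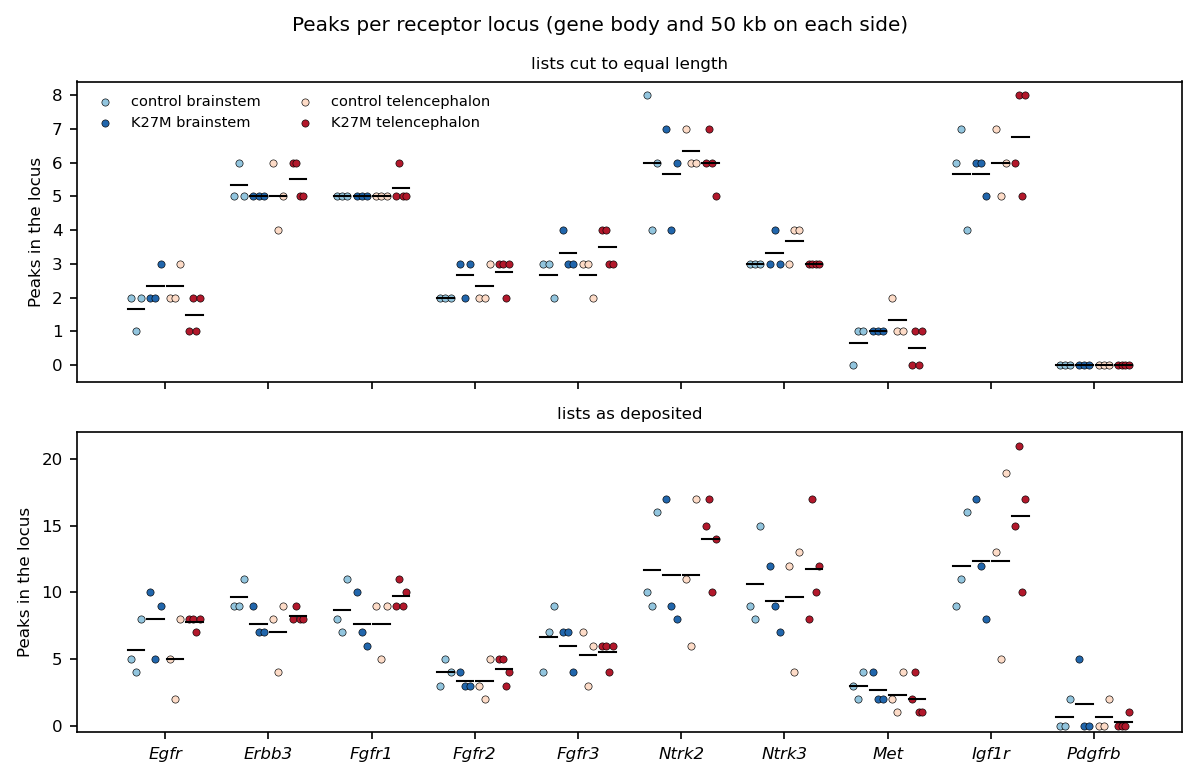
Points are single libraries and bars the group means of the number of peaks per receptor locus (gene body and 50 kb on each side), in lists cut to equal length above and in the deposited lists below. The receptor loci hold 0 to 8 peaks per library in equal lists and 0 to 21 in deposited lists.

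In the equal lists, start windows still held a peak in all 13 libraries for Fgfr1, Fgfr2 and Igf1r, in 12 for Ntrk2, 10 for Egfr, 6 for Ntrk3, 6 for Met and 2 for Fgfr3. Over all protein-coding genes, 6641 (30.3%) had a start peak in all 13 equal lists, against 3 of the 10 receptors. The Met start was called there in 0 of 3 control brainstem, 1 of 3 K27M brainstem, 3 of 3 control telencephalon and 2 of 4 K27M telencephalon libraries, and that of Ntrk3 in 1, 1, 3 and 1 of them. These 2 starts were singled out after their values were seen, and no p is given for them. Among the 4229 merged peaks found in 5 to 8 of the equal lists, Fisher's exact test called 0 after adjustment, with 246 at an unadjusted p under 0.05 by region and 133 by genotype.

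Other genes of the receptor pathways were compared by their start windows. Of 31 other receptor tyrosine kinases, 9 had a start peak in all 13 libraries (29%), among them Pdgfra, Kit, Erbb4 and Insr, 17 in some and 5 in none (Csf1r, Musk, Ros1, Tek and Tie1). Erbb2, the partner of Erbb3, was called in 6 libraries, and Fgfr4 in 5. Of 7 receptors without a kinase domain for the medium's factors and related ligands, 4 were called in all 13, and Ngfr and Cntfr, which bind neurotrophins and CNTF, in 12. Of 21 ligands, 9 were called in all 13 (42.9%), Bdnf and Egf among them, while Ntf3, the gene of neurotrophin-3, was called in 2 and Cntf in none. Of 25 adaptors and inhibitors, 22 were called in all 13 (88%), among them Grb2, Spry2 and Dusp6, and Cbl in none. Pdgfra, Csf1r and Flt1 stand in both a receptor list and a marker list.

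Start windows found in 5 to 8 libraries, 1815 over the whole annotation, were tested by Fisher's exact test, which called 0 by region and 0 by genotype after adjustment (0% each), with 2.15% and 1.21% at an unadjusted p under 0.05. No start window of the 10 receptors fell in that range. The 5 other receptor tyrosine kinases that did (Flt3, Erbb2, Fgfr4, Fgfrl1 and Mst1r) and the ligands Pdgfd and Igf1 all had a p above 0.05, the lowest being 0.103 for Flt3 by genotype (exact test, called in 6 of 7 K27M and 2 of 6 control libraries).

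**Figure D5:**
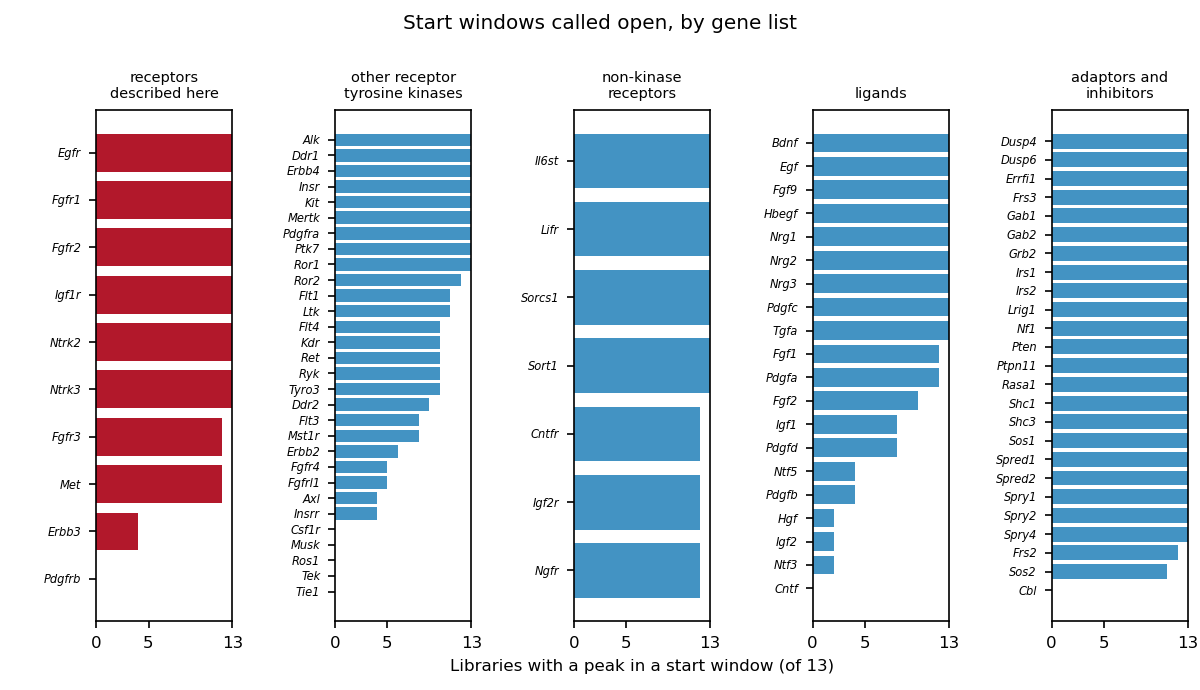
Bars give the number of libraries, of 13, with a peak in any start window of each gene, for the 10 receptors, other receptor tyrosine kinases, non-kinase receptors, ligands, and adaptors and inhibitors, without 2 listed genes that are not reported singly. The receptors reach 13 for 6 genes, 12 for Fgfr3 and Met, 4 for Erbb3 and 0 for Pdgfrb.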

How the data were processed

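ATAC-seq was performed by the authors with an Omni-ATAC protocol on frozen pellets of 13 OPC cultures. Per the labels and the methods of the study, reads were trimmed with Trim Galore 0.6.7, aligned to mm10 with BWA 0.7.17-r1188 in the nf-core ATAC-seq pipeline 2.1.2, cleared of blacklisted regions, and used for broad peak calling with MACS2 2.2.7.1, 1 library at a time. The cutoff for ATAC-seq is not given in the sources used here. The deposited lists give per peak a fold enrichment (a linear ratio), −log10 values for p-value and q-value, and a score, which was not tested. None is normalised between libraries, and no read depth can be had from them, so no counting interval is given.

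Overlapping peaks (1 bp or more) of all libraries were joined into merged peaks, and each library was represented by its highest fold there. Percentiles are midranks within a list. Starts and gene bodies were from GENCODE M21. Transcript Fgfr2-217, annotated over 2960900 bp from the Ctbp2 start, was left out of Fgfr2 after its extent was seen. Log2 fold, centred on the library median, was fitted with limma 3.58.1 (R 4.3.3) over 13075 peaks, with group and culture number as terms, since the study describes matched cultures completed together. Detection was compared by two-sided Fisher's exact tests and peak numbers by two-sided exact permutation of labels within the other factor (SciPy 1.17.1). All p-values were adjusted by Benjamini-Hochberg over all features tested, with a threshold of 0.05. In simulated data for the region comparison of 13075 peaks, limma recovered 92 of 100 changes of 0.5 and 100 of 100 changes of 1 on the log2 scale, and called 7 unchanged peaks. In 16 pairs of libraries with the same culture number, in different groups, deviations from the group means had correlations of -0.0979 to 0.271. Of these pairs, 4 exceeded 0.1. The mean was 0.0789, against -0.0269 for pairs with different numbers, of which the highest reached 0.295. The data do not show by themselves that the numbers pair the cultures. Tissue from litters was pooled by region and genotype, so the p-values do not measure the spread between animals. Those of limma rest on the spread between libraries that is left after group and culture number. The exact tests of detection and peak numbers held no culture term in their main form.

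Alternatives were the culture block, centring, percentile in place of fold, mean fold, equal lists of 16879 peaks, p-value limits of 1e-06 and 1e-10, start windows of 500 bp on each side, an overlap of 200 bp, flanks of 10 and 100 kb, and each library left out. The named peaks were the main start and strongest start peak of each receptor, up to 3 others with an unadjusted p under 0.05 and the strongest other peak called in at least 10 libraries, which narrows the rule as first written. Peaks in introns chosen for their sequence and the main start as a class were picked after the values were seen. The receptors, lists (other receptor tyrosine kinases, non-kinase receptors, ligands, adaptors and inhibitors, cell type markers) and tests were chosen with earlier results of these data known. The lists hold 2 genes whose own values are not reported here. RefSeq sequences were from GRCm38.p6.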

Additional observations from a re-analysis of the deposited data

Results flagged for a closer look

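For 20 named receptor peaks, the K27M telencephalon group, the only one of 4 libraries, was checked for a library far from the others. In 1 peak a library stood out, and chance flags about 1 in 20. At the Letm1 start 60969 bp from the Fgfr3 start, culture 59 had a fold of 3.23 against 3.94 to 3.99 in the other 3 cultures, and the gap to the nearest of them was 0.934 of the range of the group.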

How the results depend on the processing

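None of the named receptor peaks and loci that were tested passed adjustment under any alternative run. The 3 peaks called by region, none in a receptor locus, became 2 without the replicate block, 0 without centring, with percentiles or with peaks of p at most 1e-10, 1 with equal lists and 1 without both telencephalon libraries of culture 59, an alternative chosen after seeing the data. Leaving out 1 library at a time gave 0 to 4 by region, with a drop to 0 or 1 in 10 of 13 cases (all but control brainstem 59, K27M telencephalon 51 and K27M telencephalon 61), 0 to 2 by genotype (2 without K27M telencephalon 59), 0 to 1 by region in K27M (1 without control brainstem 51 or 61 or K27M telencephalon 51 or 59) and 0 to 1 by genotype in brainstem (1 without control brainstem 59 or K27M telencephalon 59). Without both culture 59 telencephalon libraries, 1 peak was called by genotype, 1 by region in control and 1 by genotype in brainstem. Equal lists gave 1 by region in K27M, and no centring gave 1 by genotype in brainstem. With labels exchanged within culture number as a replicate block, Fisher detection and locus numbers still gave 0 calls, with 65 peaks (147 without it) and 166 loci (387 without it) at an unadjusted p under 0.05 by genotype.

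Receptors with a start peak in every library numbered 6, 3 with equal lists, 0 with peaks of p at most 1e-10, and 6 to 7 without 1 library. Equal lists and the limit of 1e-10 drop peaks from the lists, and the cause of these changes was not tested. Uncalled differences near 0 changed sign. Without centring the region difference became 0.07 for Fgfr2 and 0.05 for Ntrk2 and the genotype difference of Igf1r 0.02. Without both culture 59 telencephalon libraries the last was 0.03. In percentile points the genotype difference was 0.11 for Egfr, 4.66 for Ntrk3 and 5.35 for Igf1r. Without 1 library, the genotype difference ran from -0.10 to 0.07 for Egfr, -0.10 to 0.01 for Ntrk3 and -0.10 to 0.04 for Igf1r, and the region difference from -0.03 to 0.02 for Fgfr2 and -0.07 to 0.02 for Ntrk2. The genotype difference in peaks per locus became -1.33 for Fgfr2 with the long transcript kept, and with all deposited peaks -0.25 for Fgfr3 and 2.54 for Egfr, whose equal-list value ran from -0.25 to 0.08 without 1 library. The cause was not tested.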

Other observations

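Culture 59 ranked the receptor starts lowest in every group, and lowest of all in telencephalon. Over the 6 main starts called in all libraries, the median percentile was 11.3 in control telencephalon 59 and 8.96 in K27M telencephalon 59, against 22.7 to 66.5 in the other 11 libraries. In brainstem it was 22.7 in control culture 59, against 38.4 and 39.2 in the other control cultures. In K27M brainstem culture 59 it was 32.9, against 66.5 and 45.4. Low ranks in control telencephalon 59, the shortest list, were not particular to receptors. Its medians over all shared peaks were the lowest of the 13 libraries in every width class, with 56.4 under 1 kb, 62.4 from 1 to 1.5 kb, 40.3 from 1.5 to 2 kb and 19.6 at 2 kb or more. In K27M telencephalon 59 the same medians were 73.9, 78.6, 61.3 and 32.5, each within the range of the other libraries. At 2 kb or more, the width of the Igf1r, Ntrk2 and Ntrk3 starts, only control telencephalon 59 and control brainstem 59 (29.1) were lower. The intronic peaks differed among themselves. In control telencephalon 59 the percentile was 92.3 for Ntrk3 intron 12, 65.9 for Fgfr2 intron 6, 54.5 for Igf1r intron 2 and 21.6 for Ntrk2 intron 4, the last against 76.9 to 95.6 in the other libraries. In K27M telencephalon 59 these were 93.9, 62.9, 89.3 and 79.5.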
